A study of Mus musculus with 6 samples.

Results

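Igf2, H19, Igf2r, Grb10, Plagl1, Mest, Peg10, Peg3, Ndn and Nnat are imprinted genes, several of them regulators of fetal growth, that lie outside the imprinted Dlk1-Dio3 region. They were taken by name, with no threshold on a measured value, and all 10 were among the 13024 genes counted and among the 12879 that passed the filter on low counts. Their mRNA was measured by RNA-Seq in whole lenses dissected from E14.5 mouse embryos of a mixed C57BL/6 and FVB background. Each library was made from poly(A) RNA of 10 lenses pooled over 5 embryos, and there were 3 pools labelled Gata3 CKO and 3 labelled wild type, called control here. CKO embryos carried Gata3 f/f and a Pax6-Cre transgene, which expresses Cre in the head ectoderm cells that form lens and cornea and, in scattered cells, in the retinal neuroectoderm, and which deletes exon 4 of Gata3. Control embryos lacked Cre and are described both as Gata3 f/f and as Gata3 f/wt, so the loss of Gata3 and the presence of Cre cannot be told apart. The study asked which transcripts change when Gata3, a transcription factor of differentiating lens fibre cells, is lost from the lens.

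Imprinted genes are transcribed mainly from the copy inherited from a single parent, under the control of DNA methylation set in the egg or sperm. Igf2, Plagl1, Mest, Peg10, Peg3, Ndn and Nnat are expressed from the paternal copy and H19 and Igf2r from the maternal copy, while Grb10 is maternal in most tissues and paternal in neurons. Paternally expressed members such as Igf2 tend to promote fetal growth and maternally expressed ones such as Igf2r and Grb10 to restrain it, and several members fall in their expression after birth. The counts do not separate parental copies, so all values below are sums over both.

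The depth was 15157230 to 18811104 counts per library, and the 10 members took 0.625% to 0.743% of the counts of a library. All 16 crystallin genes, which encode the main lens proteins, were counted and together took 5.47% to 16.5% of all counts, with the highest share in control 2. Gata3 had 202, 386 and 156 counts in control 1 to 3 and 910, 1064 and 894 counts in CKO 1 to 3, a count of the targeted gene that was higher under the CKO label. It covers the whole gene and cannot show whether exon 4 was deleted, and CKO and control therefore name libraries by their labels throughout. The 15 mesenchyme marker genes summed to between 487 and 2883 CPM (counts scaled to a common library size) in control and between 566 and 5007 CPM in CKO, highest in control 1 and CKO 2. The 15 retina marker genes summed to between 1246 and 3353 CPM in control and between 2143 and 2930 CPM in CKO, highest in control 3 and lowest in control 2. No gene of either list was at 0 in all libraries, and both sums varied more within than between the groups.

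The promoters of 4 members are shown because the results turn on these genes: Igf2 had the largest fitted difference, Mest was the member whose groups did not overlap, Igf2r differed once the retina marker level was held constant, and Grb10 held the only match to a GATA motif. Sequences are from RefSeq (GRCm38.p6, the build also called mm10), run 5′ to 3′ on the strand of the gene and cover 250 bases before and 50 bases after an annotated start. Capitals mark CpG dinucleotides, the sites of DNA methylation, in Igf2 (chr7:142657447-142657746, reverse strand), Mest (chr6:30737803-30738102, forward strand) and Igf2r (chr17:12769657-12769956, reverse strand). In Grb10 (chr11:12027922-12028221, reverse strand) capitals mark the match to the GATA motif.
Igf2: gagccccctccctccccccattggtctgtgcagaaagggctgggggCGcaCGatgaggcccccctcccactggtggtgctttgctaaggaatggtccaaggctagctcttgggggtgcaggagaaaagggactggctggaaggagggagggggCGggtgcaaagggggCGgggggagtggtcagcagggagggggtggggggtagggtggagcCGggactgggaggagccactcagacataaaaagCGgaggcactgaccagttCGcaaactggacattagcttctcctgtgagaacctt
Mest: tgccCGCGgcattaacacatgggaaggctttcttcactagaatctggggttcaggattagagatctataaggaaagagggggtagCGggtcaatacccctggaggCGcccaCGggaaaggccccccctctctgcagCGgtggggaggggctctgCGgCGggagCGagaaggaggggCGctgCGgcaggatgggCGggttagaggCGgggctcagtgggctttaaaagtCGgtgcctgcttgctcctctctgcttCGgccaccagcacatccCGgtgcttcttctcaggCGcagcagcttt
Igf2r: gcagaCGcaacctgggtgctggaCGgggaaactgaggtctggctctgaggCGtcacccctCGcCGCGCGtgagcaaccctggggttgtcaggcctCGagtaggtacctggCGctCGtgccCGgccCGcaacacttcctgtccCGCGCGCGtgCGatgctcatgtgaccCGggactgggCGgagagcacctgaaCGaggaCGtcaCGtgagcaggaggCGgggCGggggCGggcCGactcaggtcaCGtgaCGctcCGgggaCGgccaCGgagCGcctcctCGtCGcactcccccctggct
Grb10: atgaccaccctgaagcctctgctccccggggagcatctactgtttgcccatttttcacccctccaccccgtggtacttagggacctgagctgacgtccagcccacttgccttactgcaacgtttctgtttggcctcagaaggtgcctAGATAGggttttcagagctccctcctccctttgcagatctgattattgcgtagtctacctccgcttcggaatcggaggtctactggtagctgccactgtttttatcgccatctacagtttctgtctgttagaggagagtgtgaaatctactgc

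The windows shown hold 7 CpG for Igf2, 17 for Mest and 34 for Igf2r, but the count depends on the start: it was 2 to 24 over the Igf2 starts and 8 to 17 over those of Mest. The table of promoters held 14 starts for 8 of the 10 members, 4 of them for Igf2 and 3 for Mest, and none was found under the names H19 and Peg10. Their GC content ranged from 49.7% to 80.0% with a median of 61.65%, against a median of 52.7% over 32851 promoters, and their CpG count relative to that from base composition had a median of 0.614 against 0.384. The GATA motif was searched on both strands as GATA with A or T before it and A or G after it. It was found in 1 of the 14 windows, 103 bases before a Grb10 start, and in 29.8% of all promoters of the same length. The match is a run of letters and not a shown binding site, and methylation was not measured in these samples.

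None of the 10 members passed edgeR's quasi-likelihood test at a Benjamini-Hochberg adjusted p of 0.05, as was the case for all 12879 genes tested (0 called, 0%). At an unadjusted p under 0.05, 1 member, Mest, was called, against 457 genes or 3.55% of all tested, of which 168 were higher and 289 lower in the libraries labelled CKO. DESeq2 also called 0 members after adjustment and 2, Mest and Igf2, before it, while over all genes it called 85 or 0.661% after adjustment and 507 or 3.94% before it. With limma voom 0 members and 0 genes passed after adjustment, and 1 member and 441 genes or 3.42% before it. Fitted values were higher in CKO for 5 members and lower for 5, with a median log2 fold change of 0.01, against a median of 0.00 over all genes with 6515 higher and 6364 lower. Groups of 3 libraries did not overlap for 1 of the 10 members, against 8.36% of all genes, so the members' count is close to the background. The p-values set the difference between the groups against the spread between pools, estimated with information shared between genes. Each pool mixes 5 embryos, so the spread between single embryos was not measured.

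**Figure D1:**
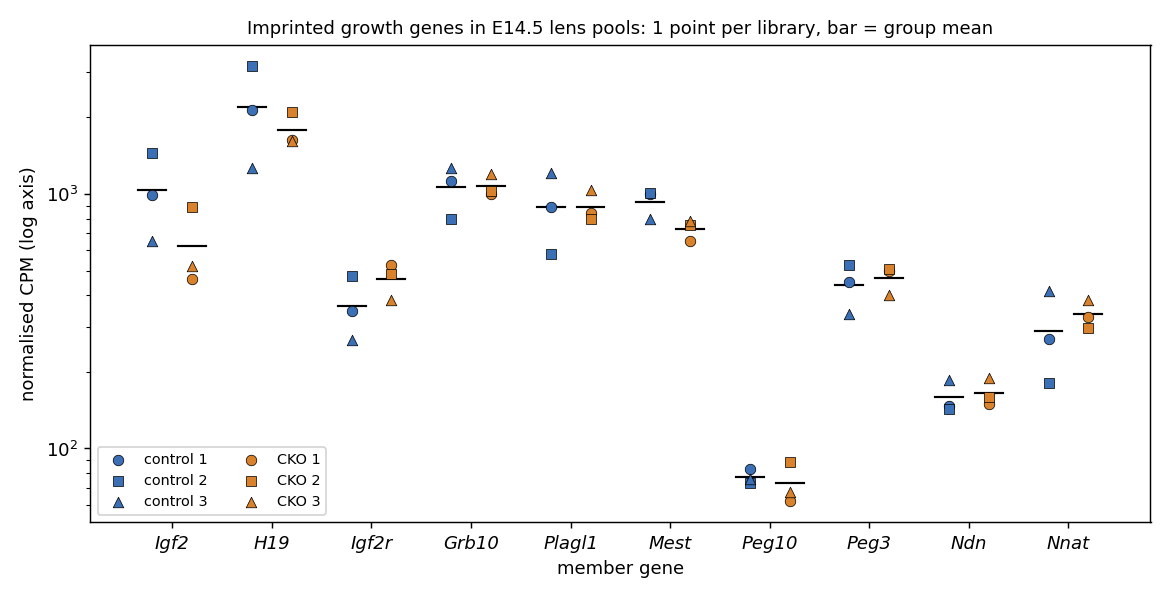
Normalised CPM on a log axis for the 10 members, with 1 point per library (blue control, orange CKO, marker shape for the replicate number) and a bar at each group mean. The groups overlap for every member but Mest, and control 2 and control 3 lie at opposite ends of the control values for every member but Peg10.

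Igf2, a secreted growth factor that acts through the IGF1 and insulin receptors, showed the largest fitted difference. Its level was 991, 1451 and 655 CPM in control 1 to 3 and 463, 887 and 519 CPM in CKO 1 to 3. CKO 1 and CKO 3 lay below all control libraries, while CKO 2 lay within the control range, so the groups overlapped. The log2 fold change was -0.73 with an SE of 0.36 and a 95% interval of -1.58 to 0.12 (edgeR adjusted p = 0.9998, n = 3 pools per group). It was -0.39 without control 2 and -1.07 without CKO 2. In the GENCODE annotation 68.5% of the Igf2 exon bases are shared with the readthrough model Gm49394 on the same strand, which is not among the genes tested. The counts were made per RefSeq gene, and whether that annotation held Gm49394 was not checked. H19, a long noncoding RNA next to Igf2 that shares its enhancers and is expressed from the other parental copy, had 2126, 3169 and 1261 CPM in control and 1626, 2105 and 1619 CPM in CKO. All 3 CKO values lay inside the control range, which was set by control 2 at the top and control 3 at the bottom. Its log2 fold change was -0.29 with an SE of 0.33 and an interval of -1.07 to 0.49 (edgeR adjusted p = 0.9998), and it was 0.08 without control 2 and -0.57 without control 3.

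Igf2r encodes the receptor that removes IGF2 from the cell surface to the lysosome. Its level was 345, 475 and 267 CPM in control and 524, 484 and 383 CPM in CKO. CKO 1 and CKO 2 were the highest libraries and CKO 3 lay between control 1 and control 2. The log2 fold change was 0.35 with an SE of 0.22 and an interval of -0.18 to 0.89 (edgeR adjusted p = 0.9998), and its sign was the same in all 18 alternative settings, from 0.18 without control 3 to 1.21 with the lens fibre level held constant, and 0.61 without control 2. Grb10, an adaptor that dampens signalling from the insulin and IGF1 receptors, had 1121, 800.2 and 1259.8 CPM in control and 1002, 1024 and 1198 CPM in CKO. The CKO values lay inside the control range, with a log2 fold change of 0.02 and an interval of -0.41 to 0.45, and -0.14 without control 2 and 0.16 without control 3. Plagl1, a zinc-finger transcription factor known to act on other imprinted genes, had 886, 578 and 1209.8 CPM in control and 839, 799 and 1032 CPM in CKO. Its group means were 891 ± 316 CPM and 889.7 ± 124 CPM (SD, n = 3), and the log2 fold change was -0.00 with an interval of -0.64 to 0.63 (edgeR adjusted p = 0.9998), and -0.22 without control 2 and 0.28 without control 3.

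Mest encodes an enzyme of the α/β-hydrolase fold found in mesodermal and other growing tissue. It had 995, 1007 and 798 CPM in control and 654, 755 and 779.6 CPM in CKO. Every CKO library lay below every control library, by as little as the gap between CKO 3 and control 3, and groups apart with CKO lower were seen for 4.69% of all genes. The mean was lower in CKO, going from 933 ± 117 CPM to 729.5 ± 66.2 CPM (SD, n = 3), and the log2 fold change was -0.35 with an SE of 0.13 and an interval of -0.66 to -0.05. This difference passed 0.05 before adjustment with edgeR and with DESeq2, and its adjusted p was 0.9998 with edgeR and 0.495 with DESeq2. The sign was negative in all 18 alternative settings, from -0.46 to -0.19. The unadjusted edgeR p was above 0.05 without control 1, control 2, CKO 1 or CKO 2 and without both control 1 and CKO 2. It was also above 0.05 with total counts as the only scaling, with the replicate number as a block and with the lens fibre level held constant. In the GENCODE annotation 32.9% of the Mest exon bases are shared with Copg2 on the opposite strand, and Copg2 itself had a log2 fold change of 0.00 with an SE of 0.10. The study describes its libraries as strand-specific, but how the counting treated strand is not given in the sources used here.

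The other 4 members had intervals that spanned zero. Peg10, a gene derived from a retrotransposon and needed for the placenta, was the lowest member, with 83.0, 72.9 and 75.9 CPM in control and 62.4, 88.5 and 67.6 CPM in CKO. CKO 2 was the highest and CKO 1 the lowest of the 6 libraries, and the log2 fold change was -0.08 (interval -0.42 to 0.25). Peg3, a large zinc-finger protein, had 451, 524 and 338 CPM in control and 498, 506 and 399 CPM in CKO, and its log2 fold change was 0.10 (interval -0.32 to 0.52). All CKO values of Peg3 lay inside the control range. Ndn, a MAGE family protein of postmitotic neurons, had 147, 143 and 186 CPM in control and 149, 159 and 189 CPM in CKO, and its log2 fold change was 0.06 (interval -0.26 to 0.38). The 2 groups of Ndn covered nearly the same range. Nnat, a small membrane protein of the endoplasmic reticulum in neural and endocrine cells, had 269.9, 182 and 417 CPM in control and 328, 298 and 384 CPM in CKO. Control held both the highest and the lowest Nnat library, and its log2 fold change was 0.22 (interval -0.48 to 0.91). Leaving out control 2 gave -0.02 and leaving out control 3 gave 0.58.

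**Figure D2:**
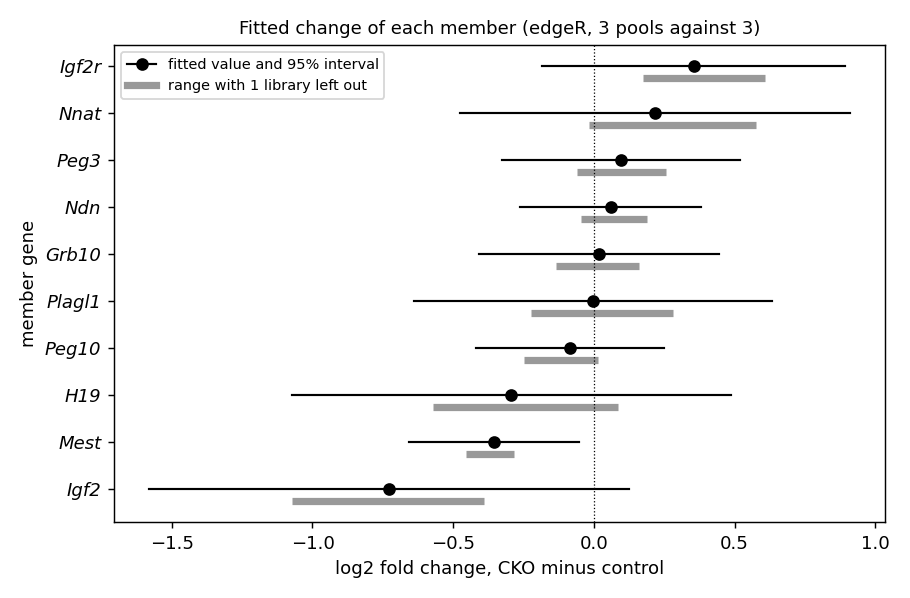
Fitted log2 fold change (CKO minus control) of each member as a black point with its 95% interval, above a grey bar for the range of values when 1 library is left out. The interval of Mest, from -0.66 to -0.05, is the only interval that does not reach zero, and the grey bars of Igf2, Mest and Igf2r lie on 1 side of zero.

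The level of each member was also compared per kilobase of merged exon in the GENCODE annotation of mm10. In control, H19 was the highest at 956 ± 418 CPM per kb (SD, n = 3), followed by Mest at 336 ± 42.1 CPM per kb, whose range overlapped that of Nnat. Grb10 (207), Nnat (201), Igf2 (197) and Plagl1 (166 CPM per kb) followed with overlapping ranges and could not be ordered. Peg3 (50.3), Ndn (43.0) and Igf2r (40.8 CPM per kb) formed a lower set with overlapping ranges, and Peg10 was the lowest at 11.6 ± 0.776 CPM per kb. In CKO, H19 (780), Mest (263) and Peg10 (10.9 CPM per kb) kept their places, and Nnat (234), Grb10 (210), Plagl1 (165) and Igf2 (119 CPM per kb) lay between. Mest overlapped Nnat, Nnat overlapped Grb10 and Plagl1 overlapped Igf2 in their ranges, while Grb10 and Plagl1 did not overlap. On the 1652-base RefSeq model of Ndn, which is shorter than the GENCODE one, its level was 96.1 CPM per kb in control and 100.2 in CKO, above Peg3.

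H19 and Igf2 lie within 1 imprinted domain on mm10 chromosome 7, H19 at 142575529 to 142578143 and Igf2 at 142650766 to 142666816, both on the reverse strand, so their ratio within a library was computed from raw counts. H19 had 2.15, 2.18 and 1.93 counts per Igf2 count in control 1 to 3 and 3.51, 2.37 and 3.12 in CKO 1 to 3. All CKO libraries lay above all control libraries, with CKO 2 nearest to them. The mean log2 ratio was 1.06 ± 0.10 in control and 1.57 ± 0.29 in CKO (SD, n = 3), a difference of 0.51 or 1.42-fold. The exact two-sided permutation test gave p = 0.1, which is the lowest value possible with 3 pools in each group, so the design cannot reach the threshold. Left out 1 at a time, the libraries gave differences of 0.39 to 0.67.

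**Figure D3:**
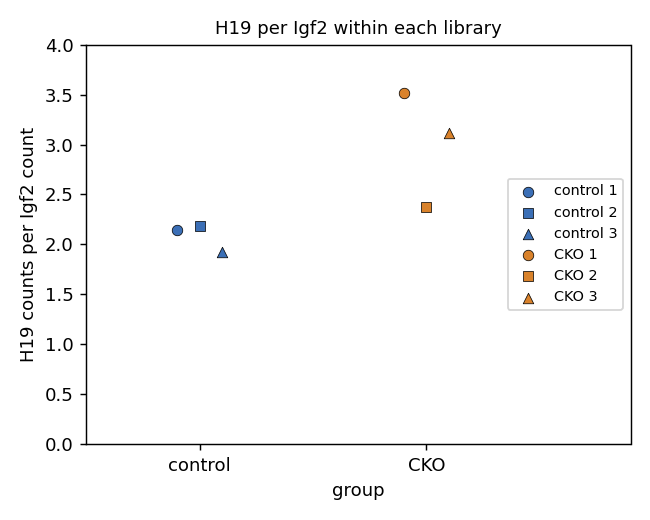
H19 counts per Igf2 count in each library, with control and CKO on the horizontal axis and the ratio on a linear vertical axis from 0. Control libraries lie between 1.93 and 2.18 and CKO libraries between 2.37 and 3.51.

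Of the 45 ratios between members, 7 did not overlap between the groups, all at the same smallest p of 0.1, against 9.45% of the ratios between all pairs of tested genes. Igf2r was in 4 of the other 6. Relative to Igf2, its log2 ratio was higher in CKO by 1.10, relative to Mest by 0.73, relative to H19 by 0.59 and relative to Peg3 by 0.27. The ratio of Peg3 to Igf2 was higher by 0.83 and that of Nnat to Plagl1 by 0.24. The 7 ratios share genes and are not independent of each other.

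The members differed widely between pools of the same group. The within-group SD of Igf2 was 0.54 on the log2 scale, higher than that of 91.2% of all genes, and those of H19 (0.50), Nnat (0.44), Plagl1 (0.40) and Igf2r (0.34) were also above the median of 0.16 over all genes. Mest had an SD of 0.16. From the lowest to the highest of the 6 libraries, Igf2 spanned 3.13-fold, H19 2.51-fold, Nnat 2.30-fold and Plagl1 2.09-fold, against 1.32-fold for Ndn. The H19, Nnat and Plagl1 extremes were control 2 and control 3, and for Igf2 they were control 2 and CKO 1.

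Over the 6 libraries the log2 CPM values of several members ran together. Pearson's r was 0.98 for Grb10 and Plagl1, 0.95 for Plagl1 and Nnat, 0.91 for Grb10 and Nnat, 0.91 for Peg3 and Igf2r, 0.85 for Igf2 and Mest and 0.84 for Igf2 and H19. H19 ran opposite to Nnat (r = -0.97), Plagl1 (r = -0.94) and Grb10 (r = -0.87). These are descriptions over 6 libraries that share a dissection and a scaling, with control 2 far from the rest, and 109 genes for Peg10 to 1332 genes for Nnat had an r above 0.9 with a member. The genes most like each member were Dis3l and Csf1r for Igf2, Cyba and Gas5 for H19, Ece1 for Peg3, Serhl and Tns1 for Peg10, Fbxo7 and 3010001F23Rik for Mest, Eid2b and Kdm2b for Ndn, Lig1 and Hkdc1 for Grb10, Kat5 and Rbm15b for Plagl1, Mxra8 and Adamts6 for Igf2r, and Igfbpl1 and Cadm4 for Nnat, each with an r of at least 0.98.

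Several members ran with the retina markers. Against the average log2 CPM of all 15 retina markers, r was 0.99 for Nnat, 0.97 for Plagl1, 0.94 for Grb10 and 0.77 for Ndn, and -0.98 for H19, -0.83 for Igf2 and -0.78 for Peg3. Without control 2 these were 0.97, 0.93, 0.78, 0.83, -0.96, -0.57 and -0.89 in the same order. Other lists gave r of similar size for some of these members. Nnat had an r of -0.92 with the blood, -0.91 with the macrophage and -0.91 with the vessel markers. Without control 2 these Nnat values were -0.71, -0.75 and -0.89. With the 5 lens epithelium genes r was -0.92 for Grb10 and -0.91 for Plagl1, and -0.76 and -0.74 without control 2. For H19 it was 0.92 with the macrophage, 0.91 with the vessel and 0.91 with the blood markers, and 0.78, 0.86 and 0.86 without control 2. Igf2 had an r of 0.98 with the mean of 10 macrophage markers, among them Csf1r, whose list summed to 83.9 to 157 CPM in control and 75.3 to 102 CPM in CKO, and an r of 0.95 with that of 9 vessel markers, which summed to 285 to 372 CPM in control and 258 to 325 CPM in CKO. Peg10 had an r of 0.85 with the 15 mesenchyme markers, and Mest one of 0.80 and Igf2 one of 0.77 with the 13 lens fibre genes. Without control 2 the fibre values were 0.67 for Mest and 0.46 for Igf2, and those of Igf2 with the macrophage and vessel markers were 0.96 and 0.91. In such bulk pools, fewer cells of a type and less RNA per cell cannot be told apart, and the part of macrophage and vessel RNA in the members' values was not tested.

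**Figure D4:**
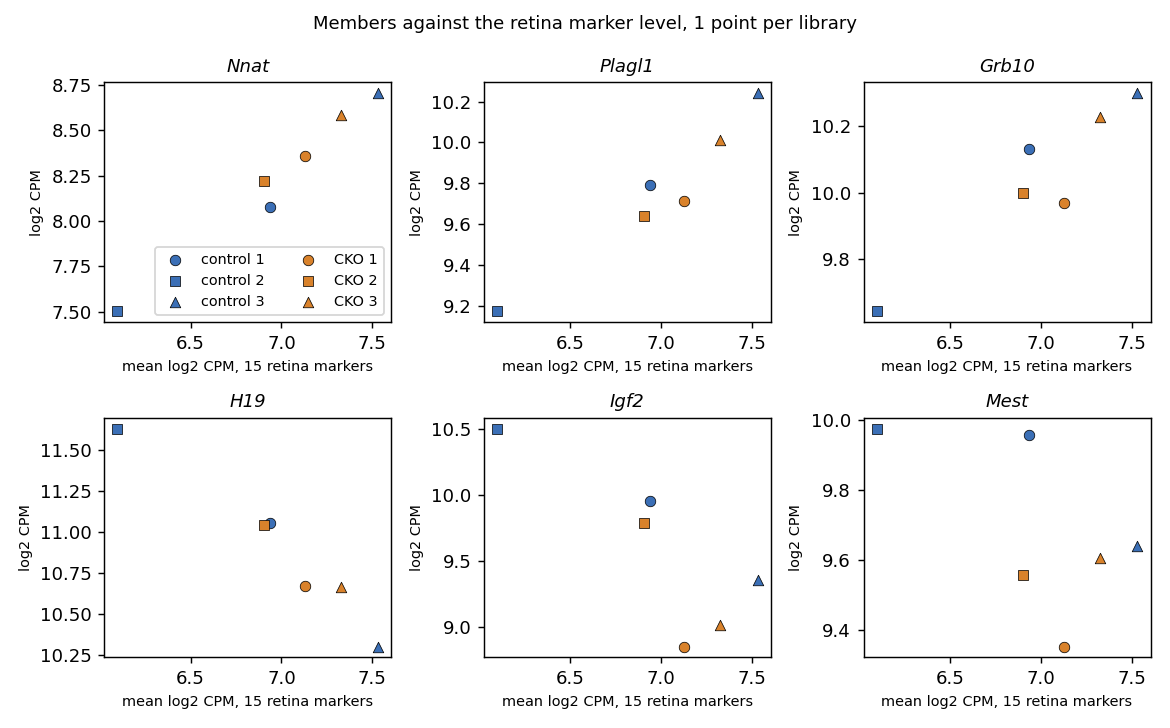
Log2 CPM of Nnat, Plagl1, Grb10, H19, Igf2 and Mest (vertical axes) against the mean log2 CPM of 15 retina markers (horizontal axes), 1 point per library. Nnat, Plagl1 and Grb10 rise and H19 and Igf2 fall along the retina marker level, with control 2 at the left and control 3 at the right, whereas for Mest the control libraries lie above the CKO libraries.

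Refits that held a marker level constant moved the members. With the retina level as a covariate, Igf2r was higher in the libraries labelled CKO by a log2 fold change of 0.54 (interval 0.33 to 0.75, edgeR adjusted p = 0.0284), the 1 member called, against 130 genes or 1.01% of all tested. Mest was at -0.30 (adjusted p = 0.329), Peg3 at 0.23 (adjusted p = 0.441), Igf2 at -0.45 (adjusted p = 0.766) and H19 at 0.03 (adjusted p = 0.981). With group means removed, the r of Igf2r was -0.93 with retina, 0.94 with lens fibre, 0.88 with lens epithelium and 0.17 with mesenchyme levels. Over all 6 libraries these were -0.57, -0.07, 0.78 and 0.17. With the mesenchyme level as a covariate 0 members and 0 genes were called after adjustment and 457 genes or 3.55% before it. Those at an unadjusted p under 0.05 held 2 members, Igf2 at -0.82 (interval -1.54 to -0.11) and Mest at -0.36 (interval -0.67 to -0.05), and Igf2r was at 0.35 (interval -0.24 to 0.94). With the lens fibre level as a covariate Igf2r was at 1.21 (adjusted p = 0.00961) and Plagl1 at -0.92 (adjusted p = 0.0477), 2 members called against 335 genes or 2.6% of all tested, and Grb10 was at -0.61 (adjusted p = 0.0502). The fibre level itself differed with the label (r = -0.85 with group, against 0.29 for the retina and 0.06 for the mesenchyme level), so that fit cannot tell the label from the fibre level. Each covariate leaves 3 residual degrees of freedom before the spread is shared between genes, and without the covariate Igf2r had an adjusted p of 0.9998.

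The partners of Igf2, Igf2r and Grb10 in insulin-like growth factor signalling were read from a list of 32 genes, of which 28 were tested. None passed the adjusted edgeR test, 2 were lower in CKO at an unadjusted p under 0.05 and 0 higher, and the median log2 fold change was 0.03. The first was Pappa, a protease that frees IGF from its binding proteins, at 12.1, 28.5 and 8.04 CPM in control and 1.95, 3.56 and 1.30 CPM in CKO. All CKO libraries lay below all control libraries, with a log2 fold change of -2.82 (SE 0.59, edgeR adjusted p = 0.586, DESeq2 adjusted p = 0.000106). The second was Shc1, an adaptor between receptors and Ras, with 174, 280.5 and 135 CPM in control and 110.4, 122 and 104 CPM in CKO, a log2 fold change of -0.81 (SE 0.26, edgeR adjusted p = 0.9998). The receptors Igf1r and Insr had log2 fold changes of 0.07 and 0.10 and the ligand Igf1 one of 0.21, all with overlapping groups. The 13 lens fibre genes also had lower fitted values in CKO, 9 of them at an unadjusted p under 0.05, and a link between them and Pappa was not tested.

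Other imprinted genes were read beside the members. Of 50 listed outside Dlk1-Dio3, 35 were counted and 32 tested, 20 with a higher and 12 with a lower fitted value in CKO and a median of 0.04. None passed the adjusted edgeR test and 2 were higher at an unadjusted p under 0.05, Usp29, a neighbour of Peg3, at 0.46 (SE 0.16) and Cd81 at 0.26 (SE 0.09), both with an adjusted p of 0.9998. Cdkn1c, a maternally expressed inhibitor of the cell cycle, was at -0.64 (SE 0.30). Its unadjusted p was 0.0755 with edgeR and 0.0288 with DESeq2, and its adjusted p was 0.9998 with edgeR and 0.958 with DESeq2. Cdkn1c had 511, 981 and 434 CPM in control and 387, 450.3 and 401 CPM in CKO. The noncoding RNAs that overlap members were counted at low levels, Airn (in Igf2r) at a mean of 7.46 CPM in control and 9.67 in CKO and Igf2os (antisense to Igf2) at 10.3 and 7.0 CPM, with log2 fold changes of 0.38 and -0.55. In Dlk1-Dio3, 3 of 8 tested genes, Meg3 at 0.80, Rian at 1.02 and Mirg at 0.83, were higher at an unadjusted edgeR p under 0.05, DESeq2 gave adjusted p values of 0.00135, 7.94e-05 and 0.268, and the median was 0.50, a comparison with the members that was not tested. The 9 genes that maintain imprints, among them Zfp57, Trim28, Ctcf and Dnmt1, had log2 fold changes from 0.01 to 0.14, none with an unadjusted p under 0.05, the highest being those of Uhrf1 at 0.14 with an SE of 0.16 and Ctcf at 0.06.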

How the data were processed

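RNA-Seq of 6 mouse lens pools was used, numbered as in the sample titles. The authors trimmed reads (Trim Galore), aligned them to mm10 with TopHat2 2.0.13, counted them per RefSeq gene with HTSeq 0.6.1 and deposited raw counts, limited to genes whose mean FPKM exceeded 1 in control or CKO. How HTSeq treated strand and overlaps is not given in the sources used here. The filter kept genes reaching 10 counts in 3 or more libraries, and the test was from edgeR 4.0.16 in R 4.3.3: TMM scaling, robust quasi-likelihood fit of CKO against control over all 6 libraries, Benjamini-Hochberg adjustment over all genes tested, threshold 0.05. The CPM values are TMM-scaled. The scripts were tested on simulated data. No pool differed from another by as little as sampling noise. Ratios were compared by an exact permutation test. Marker levels are means of log2 CPM with a prior count of 1. Alternatives were DESeq2 1.42.0, limma 3.58.1 voom, other scalings and filters, a replicate block, 3 covariates and libraries left out. Named genes are the members, the genes of each other list with an unadjusted p under 0.05 or else the 2 with the largest change, and the 2 genes most correlated with each member, of which 1 is not reported here; genes of other roles named beside them were chosen after their values were seen. The members and lists were chosen with earlier results of these data known. Positions come from GENCODE M21 and promoters from RefSeq. Figures were drawn with matplotlib 3.10.9 in Python 3.11.15.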

Additional observations from a re-analysis of the deposited data

How the results depend on the processing

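All 10 members had an adjusted p above 0.05 under every alternative except the retina covariate (1 member called) and the lens fibre covariate (2 called). Genes called over the whole table numbered 85 with DESeq2, 1 with total counts only, 1 with crystallins left out of the library sizes, 130 with the retina covariate and 335 with the lens fibre covariate, and 0 to 1 when 1 library was left out (1 without control 3). Total counts only moved the median log2 fold change of all genes to 0.103 and that of the members to 0.0891, so the members stayed near the shift, and it gave 428 higher and 191 lower genes at an unadjusted p under 0.05 in place of 168 and 289. The lens fibre covariate gave a member median of -0.22. Members whose groups did not overlap numbered 1 to 5 when 1 library was left out, with 5 without control 3, 3 without CKO 2, 2 without control 2 and 2 without CKO 3, and 3 without control 1 and CKO 2, the pools with the highest mesenchyme marker level (chosen after seeing the data); over all genes the shares were 13.5% to 27.7% when 1 library was left out (27.7% without control 3, 21.9% without control 2, 15.5% without CKO 2) and 21.5% without both. Without control 3, 4 members (Igf2, H19, Mest and Nnat) had an unadjusted p under 0.05 and 1234 genes did, against 271 to 806 without another library. The log2 difference of the H19 to Igf2 ratio was 0.69 without control 1 and CKO 2. The sign of the fold change differed from that reported in 10 of 18 alternatives for Plagl1, 4 for Grb10, 3 for H19 and for Ndn, 2 for Peg10 and for Nnat and 1 for Igf2 and for Peg3. With the replicate number as a block, Igf2 was at -0.71 (edgeR adjusted p = 0.702), 0 members were called after adjustment, and 2 members (Igf2 and Igf2r, not Mest) and 516 genes before it. The deviations of pools with the same number in the titles correlated at -0.49, 0.09 and 0.44, so the numbers were not taken to pair them. The descriptions number the CKO pools 2 to 4, under which the shared numbers 2 and 3 correlated at 0.09 and -0.48. Overlap of groups has no value under settings that change only the test, the filter or a covariate. Causes of these shifts were not tested. With 3 pools per group, a ratio cannot reach an exact p below 0.1.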

Other observations

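Genes of other cell types in the lens pools gave the following log2 fold changes, none with an adjusted edgeR p under 0.05. Of the 13 lens fibre genes, 9 were lower in the libraries labelled CKO at an unadjusted p under 0.05 and 0 higher, with a median of -1.15, and DESeq2 called 5 of the 13 lower after adjustment. The 5 called by DESeq2 were the nuclease gene Dnase2b at -4.64, Birc7 at -3.67, the beaded filament genes Bfsp1 at -2.72 and Bfsp2 at -1.55, and Lenep at -2.70. The others were Lctl at -1.42, Hsf4 at -1.15, Tdrd7 at -1.10 and Lim2 at -1.04. Of the 16 crystallins, 10 were lower and 0 higher by edgeR at that level, with a median of -1.19, and DESeq2 called 4 lower after adjustment, Crygf at -3.63, Crygb at -2.67, Cryga at -1.38 and Cryba4 at -1.37. The other 6 were Crygd at -1.73, Crygc at -1.64, Cryge at -1.54, Cryba2 at -1.19, Crygn at -1.18 and Crybb3 at -1.18, and reads of the closely similar gamma-crystallins may be split uncertainly between them. Of 5 lens epithelium genes, the laminin receptor subunit Itga6 at 0.64 was higher at an unadjusted p under 0.05 (DESeq2 adjusted p = 0.0163). Of 9 vessel genes, Esam at -0.69 was lower at that level, and of 10 macrophage genes, C1qa at -0.79, with 0 called by DESeq2 after adjustment in both lists. Fitted values were lower in CKO for 8 vessel genes and higher for 1 (median -0.39), and lower for all 10 macrophage genes (median -0.44). They were also lower for all 5 tested blood genes (median -0.76), and higher for all 15 retina genes (median 0.17). The groups overlapped for every gene of these lists. No gene of the mesenchyme, retina, blood, pigment cell or surface ectoderm lists had an unadjusted edgeR p under 0.05 or was called by DESeq2 after adjustment. The largest fitted values there were Postn at 0.99 and Col3a1 at 0.81 (mesenchyme), Elavl3 at 0.22 and Atoh7 at 0.21 (retina), Hbb-y at -0.99 and Alas2 at -0.98 (blood), Mitf at -0.53 and Mlana at 0.29 (pigment cells) and Trp63 at 0.51 and Krt15 at 0.47 (surface ectoderm).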
